A study of Mus musculus with 12 samples.

Results

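Interferon-γ (IFN-γ), the cytokine that defines T helper 1 (Th1) cells, and the genes that control or receive it were followed across 12 arrays of mouse CD4+ T cells in a series on Th17 cells. The genes were Ifng itself, the subunits of its receptor (Ifngr1, Ifngr2), the subunits of the IL-12 receptor (Il12rb1, Il12rb2), and the transcription factors Stat4, Tbx21, Hlx and Runx3. They were taken by name, as all probe sets that the array's annotation lists under these genes alone. This gave 11 probe sets for 9 of the 18193 genes on the array. Ifngr2 and Runx3 had a pair of probe sets each, and the brightest over all arrays stood for the gene.

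The SKG group was CD4+ cells from the lymph nodes of SKG mice, which carry on a BALB/c background a mutant form of Zap70, a kinase of T cell receptor signalling. Its control was CD4+ cells from BALB/c mice. Both were 40 weeks old, labelled as sorted without FR4 (the folate receptor that marks many regulatory and anergic T cells) and as stimulated with PMA and ionomycin, agents that switch on cytokine transcription. BALB replicate 1 differs, being labelled as CD4+ cells of spleen and lymph node with no mention of FR4. The IFN-γ KO transfer was spleen CD4+ T cells 7 days after IFN-γ-deficient BALB/c CD4+ cells had been given to RAG2-deficient BALB/c mice. The IL-6 KO transfer was IL-6-deficient BALB/c CD4+ cells given to hosts lacking both IL-6 and RAG2. The labels give these mice an age of 7 weeks and name no stimulation. All mice were female and each group had 3 arrays. RAG2-deficient mice lack T and B cells of their own but keep natural killer and myeloid cells, and the labels do not say that the hosts of the IFN-γ KO transfer lack Ifng. No transfer of unmodified cells was included, so donor and host genotype differ together.

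In Th1 differentiation, IL-12 binds the receptor formed by Il12rb1 and Il12rb2 and activates Stat4, which raises Ifng and the Th1 master regulator Tbx21 (T-bet). Runx3 binds the Ifng locus together with T-bet, and Hlx is a homeobox factor that supports Ifng expression. Secreted IFN-γ acts back on cells through Ifngr1, which binds it, and Ifngr2, which is needed for signalling. CD4+ T cells are known to limit Ifngr2 as they become Th1 cells.

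Levels are log2(intensity + 16) after quantile normalization of the arrays of a comparison. Only genes with a mean at or above the 40th percentile over probe sets were tested, a floor of 4.74 for SKG and BALB and of 4.72 for the transfers. The labelled T cells held T cell transcripts, with Cd3d between 10.56 and 10.79 as group means over all arrays and Cd4 between 6.67 and 8.45. Array quality was not even. The 3'/5' signal ratio of actin, which rises as RNA is degraded, was 1.93 to 2.63 in SKG and 2.95 to 3.98 in BALB arrays, whereas that of Gapdh overlapped (2.57 to 3.03 and 2.86 to 3.28). Replicate 3 of either transfer group stood apart, with Gapdh ratios of 7.99 and 9.33 against 2.42 to 2.84 in the other 4 transfer arrays. Whether these differences enter the results was not tested, and values from replicates 1 and 2 alone are given where they change a call or move a called value by over 1.5 times.

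Ifng, the gene targeted in one of the donors, was read first. Its deposited intensity was 744, 455 and 764 in replicates 1 to 3 of the IFN-γ KO transfer, and 11967, 11997 and 12884 in the IL-6 KO transfer. On the log2 scale these were 9.58, 8.87 and 9.75 against 13.57, 13.57 and 13.53. Every array labelled IFN-γ-deficient lay far below every array labelled IL-6-deficient. Ifng fell by 4.16 ± 0.22 (SE, n = 3 per group, limma adjusted p = 0.0011), to 0.056 of the level in the IL-6 KO transfer. Without each of the 6 arrays in turn the value ran from -4.28 to -3.91 and the adjusted p stayed at 0.019 or below. The signal in the IFN-γ KO transfer was not at the floor: Ifng ranked between 3657 and 5743 among 45037 probe sets by intensity, against 51 to 61 in the IL-6 KO transfer. Neither the deleted part of the gene nor the place of the probe set relative to it is given in the labels, so a probe set outside the deletion would check nothing, and the source of the remaining signal was not tested.

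In the stimulated cells Ifng was among the brightest transcripts in either strain, and brighter in SKG. Its log2 levels were 13.51, 13.56 and 13.19 in SKG and 12.84, 12.88 and 12.33 in BALB. The groups did not overlap. Ifng rose by 0.74 ± 0.16 (SE, n = 3 per group, limma adjusted p = 0.0086), or 1.67-fold. Without normalization between arrays the value was 0.66 and the call was lost (adjusted p = 0.083). Ifng ranked 48 to 164 among all probe sets in SKG arrays and 289 to 540 in BALB arrays. The intensities as deposited were 9590, 9946 and 12535 in SKG against 6638, 6797 and 6739 in BALB.

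The 250 bases before the annotated start are shown for Ifng and Tbx21, from RefSeq on build GRCm38.p6. They are a pair chosen from the genes that moved in opposite directions between SKG and BALB (below). Windows were listed for 8 of the 9 genes, all but Il12rb1. Capitals mark exact matches on either strand to an NFAT core (GGAAA), an AP-1 site (TGANTCA), a T-box core (GGTGTG), a Runx core (TGTGG) or a STAT-type GAS site (TTCNNNGAA). The Ifng window lies on the plus strand at chr10:118440796-118441045 and that of Tbx21 on the minus strand at chr11:97115332-97115581.
Ifng: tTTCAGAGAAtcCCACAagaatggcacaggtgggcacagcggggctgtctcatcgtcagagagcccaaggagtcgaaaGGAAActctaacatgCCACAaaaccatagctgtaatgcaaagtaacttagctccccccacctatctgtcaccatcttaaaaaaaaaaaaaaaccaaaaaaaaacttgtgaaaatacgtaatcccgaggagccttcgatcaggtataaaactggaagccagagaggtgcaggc
Tbx21: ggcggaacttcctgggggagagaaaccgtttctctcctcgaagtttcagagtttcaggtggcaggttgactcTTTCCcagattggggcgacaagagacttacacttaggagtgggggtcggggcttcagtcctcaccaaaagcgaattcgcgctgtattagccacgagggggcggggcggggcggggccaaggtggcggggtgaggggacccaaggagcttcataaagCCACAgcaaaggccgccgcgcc
The Ifng window held 1 GAS match (-249 to -241, counted from the start), 2 Runx matches (-238 to -234 and -157 to -153) and 1 NFAT match (-172 to -168). That of Tbx21 held 1 NFAT match (-178 to -174) and 1 Runx match (-22 to -18). Neither held an AP-1 or T-box match, and no matches overlapped. Among all 32851 windows listed, 55.6% held the NFAT core, 49.3% the Runx core, 16.3% the T-box core, 7.02% the GAS site and 6.75% the AP-1 site, so the NFAT and Runx letters are common in windows of this length.

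**Figure D1:**
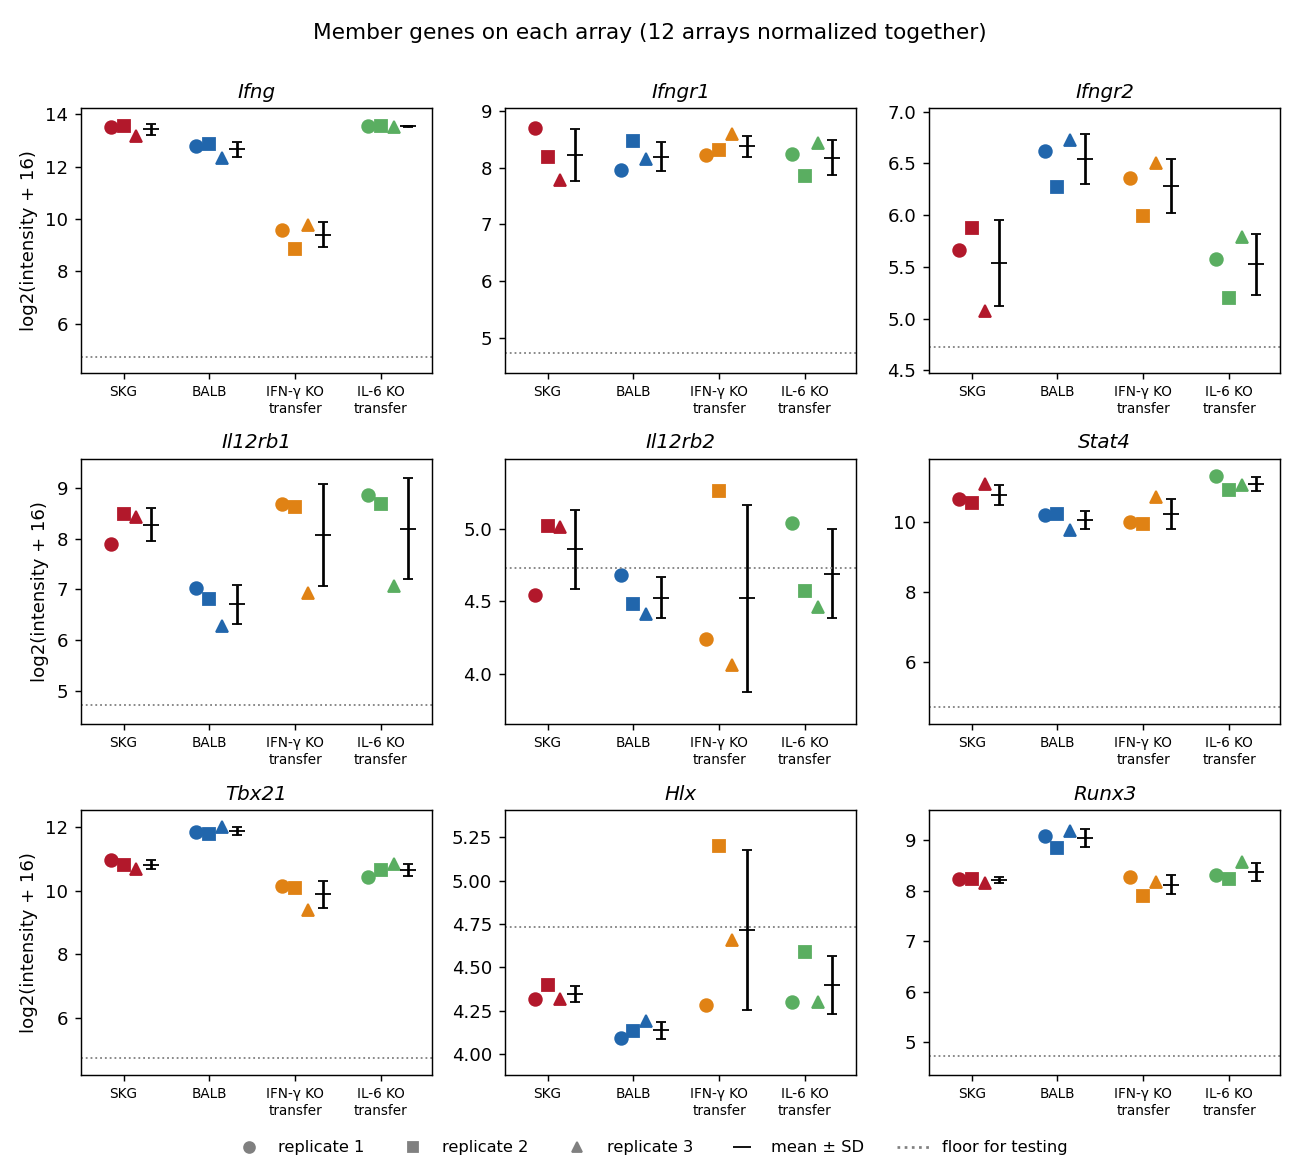
Log2(intensity + 16) of the 9 genes on each of the 12 arrays, normalized together, by group (x axis). Coloured symbols are arrays with the shape giving the replicate, black bars are the mean ± SD (n = 3), and the dotted line is the floor for testing (4.73); Ifng lies between 8.86 and 9.77 in the IFN-γ KO transfer and above 12.3 in every other array, and Il12rb1 is low in replicate 3 of both transfers.

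Between SKG and BALB, 7 of the 9 genes were bright enough to test, and 3 of them rose (Il12rb1, Ifng and Stat4) while 3 fell (Tbx21, Runx3 and Ifngr2). Ifngr1 did not pass. Over all 12075 genes tested 27.5% passed, 15.7% as higher and 11.8% as lower, so a call in this comparison is common. The arrays of the groups did not overlap for the 6 genes called, and for 43.3% of all genes tested. With replicates 1 and 2 only, the counts of higher and lower genes were again 3 and 3. Calls were more common in that fit, where 2866 of 12022 genes rose and 2205 fell. Whether replicates were separate mice is not labelled, so the p-values rest on array-to-array spread that may be technical only. In bulk samples fewer cells of a type and less RNA per cell cannot be told apart.

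The IFN-γ receptor subunits differed from each other. Ifngr1, the ligand-binding subunit, was 8.69, 8.17 and 7.77 in SKG and 7.94, 8.48 and 8.13 in BALB. These values overlapped, with a difference on the log2 scale of 0.03 ± 0.25 (SE, adjusted p by limma = 0.95) and a 95% interval from -0.54 to 0.60 that leaves room for a moderate change either way. Ifngr2, the signalling subunit, was dim. It was 5.66, 5.89 and 5.08 in SKG against 6.62, 6.28 and 6.74 in BALB, with every SKG array below every BALB array. Ifngr2 fell by 1.01 ± 0.25 (SE, limma adjusted p = 0.017), to 0.498 of the BALB level. Leaving out BALB replicate 1, whose label names no FR4 sort, ended the call (-0.96, adjusted p = 0.062), and with replicates 1 and 2 only the value was -0.67 (adjusted p = 0.026). With log2(intensity + 64), which compresses dim genes, it was -0.57 (0.013). Its other probe set gave the same direction, with -1.43 ± 0.29 (limma adjusted p = 0.0088 over 27022 probe sets tested).

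Il12rb1, the receptor chain shared by IL-12 and IL-23, had the largest rise of the 9 genes. It was 7.88, 8.47 and 8.42 in SKG and 7.03, 6.81 and 6.28 in BALB. All SKG arrays lay above all BALB arrays, and Il12rb1 rose by 1.55 ± 0.25 (SE, n = 3 per group, limma adjusted p = 0.0024), or 2.93-fold. Il12rb2, the chain specific to IL-12, stayed near the background of the arrays, with deposited intensities of 6.3, 15.9 and 18.9 in SKG and 7.8, 5.0 and 8.7 in BALB. It was below the floor and was not tested. In the fit with no filter the difference was 0.33 ± 0.20 (adjusted p by limma = 0.34). Such signals do not show whether Il12rb2 is expressed at a low level or below detection.

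Stat4, which IL-12 activates, was 10.66, 10.56 and 11.10 in SKG and 10.21, 10.25 and 9.79 in BALB. It rose by 0.69 ± 0.19 (SE, limma adjusted p = 0.024), with no overlap between groups. Much of the difference came from the arrays numbered 3: with replicates 1 and 2 only it was 0.38 (adjusted p = 0.0069). The call was lost without normalization between arrays (0.59, adjusted p = 0.18), and on leaving out SKG replicate 1 (0.75, 0.055), BALB replicate 1 (0.76, 0.051) or BALB replicate 3 (0.54, 0.057).

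Tbx21 and Runx3, the factors that act together on the Ifng locus, were lower in SKG although Ifng was higher on the same arrays. Tbx21 was 10.98, 10.83 and 10.71 in SKG and 11.86, 11.80 and 12.05 in BALB. The groups were well apart relative to their SD of 0.13 each. Tbx21 fell by 1.06 ± 0.12 (SE, n = 3 per group, limma adjusted p = 0.00053), to 0.479 of the BALB level, and passed without each array in turn, with values from -1.14 to -0.98. Runx3 was 8.23, 8.23 and 8.13 in SKG and 9.08, 8.83 and 9.20 in BALB. Its SKG arrays were close together and all below BALB. Runx3 fell by 0.84 ± 0.16 (SE, limma adjusted p = 0.0054). The other Runx3 probe set was near background, at 4.20 to 4.46 as group means in SKG and BALB over all arrays, and was not tested. With the median of its probe sets the value for Runx3 was -0.29 (adjusted p = 0.21). Hlx was also near background, with deposited intensities from 0.8 to 5.2 over the 6 arrays, and was not tested.

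Some markers of other cell types passed as well, where 15.7% of all genes rose and 11.8% fell. Of these cells, CD8+ T cells express Runx3 and Tbx21, and natural killer cells express Tbx21 and Ifng. Of the 2 CD8 markers Cd8b1 fell by 2.48 ± 0.43 (SE, limma adjusted p = 0.0035), while Cd8a was 5.54 ± 0.42 (SD, n = 3) in SKG and 4.73 ± 0.39 in BALB over all arrays and did not pass (adjusted p = 0.072). The summed normalized intensity of the pair was 29 to 125 in SKG arrays and 236 to 252 in BALB arrays. Of 5 natural killer markers on the array 2 were tested and 1 rose, Klrd1, by 0.70 ± 0.21 (SE, adjusted p = 0.038). Their sum was 81 to 163 in SKG and 54 to 77 in BALB, and Ncr1, the defining receptor, did not exceed an intensity of 26.3 in these arrays. B cell markers summed to 2832 to 6651 in SKG and 685 to 2395 in BALB, nearly all of it Ighm, which rose by 1.93 ± 0.44 (adjusted p = 0.012) and was the 1 of 4 tested B cell markers that passed. By comparison T cell markers summed to 8768 to 8978 and 8357 to 9525. Of these 6 markers 1 passed, Lat, which fell by 0.71 ± 0.18 (SE, limma adjusted p = 0.019). Cd3g had a value of 1.06 ± 0.35 and did not pass (0.051), and with the replicate block 1 T cell marker was higher. The part of these cells in the changes of Ifng, Tbx21 and Runx3 was not tested.

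**Figure D2:**
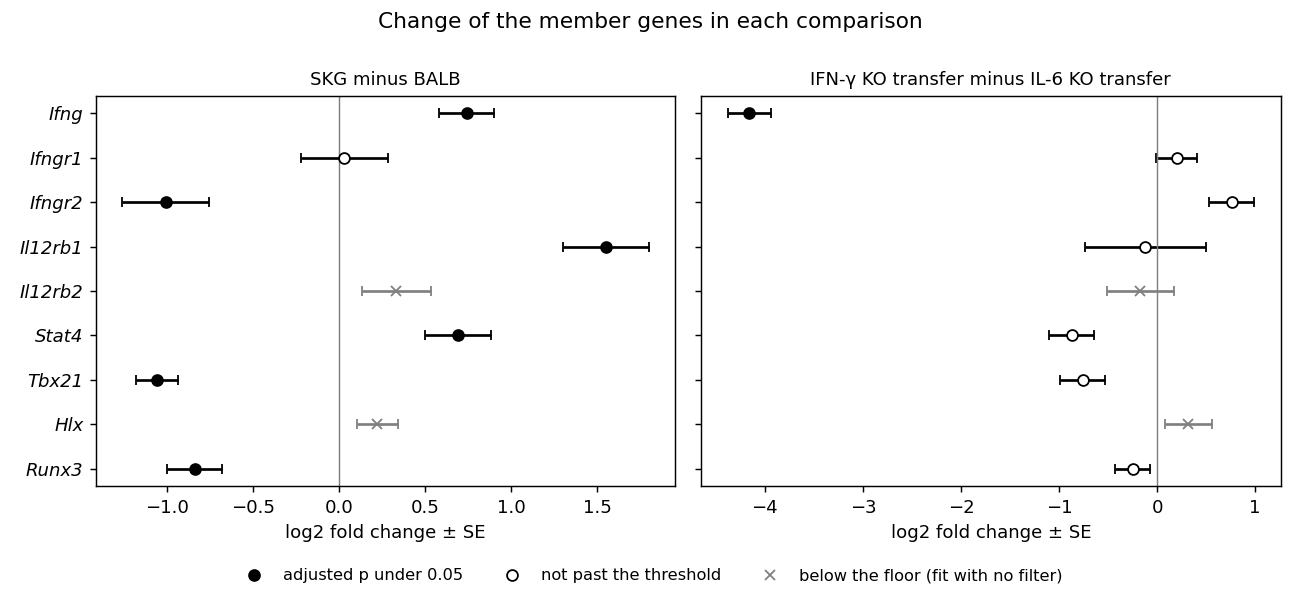
Log2 fold change ± SE (x axis) of each gene (y axis) from limma, for SKG minus BALB (left) and for the IFN-γ KO transfer minus the IL-6 KO transfer (right), each on its own scale. Filled circles have an adjusted p under 0.05, open circles do not, and grey crosses are genes below the floor, from the fit with no filter. On the left 3 genes are higher and 3 lower; on the right only Ifng, at -4.16, is filled.

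In the transfer comparison Ifng was the 1 gene of 7 tested that passed, where 0.114% of 12262 genes passed, 0.0652% as higher and 0.0489% as lower. With the replicate number as a block, used because same-numbered arrays deviated together, 2 passed as lower (Ifng and Stat4), against 1.79% of all genes in either direction and 1.01% as lower. At an unadjusted p under 0.05 there were 4, Ifng, Stat4, Tbx21 and Ifngr2, against 4.35% of all genes, and the same 4 had arrays that did not overlap between the groups, against 9.93%. Higher and lower below are for the IFN-γ KO transfer relative to the IL-6 KO transfer, without saying which group changed.

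Stat4 was 9.97, 9.93 and 10.70 in the IFN-γ KO transfer and 11.28, 10.89 and 11.03 in the IL-6 KO transfer. All arrays of the first group lay below those of the other, with a log2 difference of -0.87 ± 0.23 (SE, adjusted p by limma = 0.66). With the replicate block Stat4 passed as lower (adjusted p = 0.032), as it did with replicates 1 and 2 only (-1.10, adjusted p = 0.00046). Tbx21 was 10.14, 10.09 and 9.40 against 10.43, 10.66 and 10.82, again without overlap. The log2 difference was -0.76 ± 0.23 (SE, adjusted p by limma = 0.80, and 0.093 with the block). It passed with replicates 1 and 2 only, at a smaller value (-0.41, adjusted p = 0.032). Runx3 was 8.27, 7.92 and 8.20 against 8.33, 8.24 and 8.57, overlapping values with a log2 fold change of -0.25 ± 0.18 (limma adjusted p = 1, 95% interval -0.68 to 0.18).

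The receptor genes did not pass in the transfers. Ifngr2 was 6.36, 5.98 and 6.49 in the IFN-γ KO transfer and 5.57, 5.20 and 5.79 in the IL-6 KO transfer, non-overlapping values with a log2 difference of 0.76 ± 0.23 (SE, adjusted p by limma = 0.85, and 0.073 with the block). With log2(intensity + 64) the value was 0.42. Its other probe set gave 0.37 ± 0.45. Ifngr1 was 8.24, 8.33 and 8.59 against 8.26, 7.87 and 8.45, a log2 fold change of 0.20 ± 0.21 (limma adjusted p = 1) with a 95% interval from -0.30 to 0.69. Il12rb1 did not separate the genotypes at all, but it separated the arrays by number. It was 8.69, 8.63 and 6.91 in the IFN-γ KO transfer and 8.86, 8.68 and 7.07 in the IL-6 KO transfer, so replicate 3 of either group was lower by more than the groups differed. These are the arrays with Gapdh 3'/5' ratios of 7.99 and 9.33, and the part of RNA quality in this gap was not tested. Between the groups the log2 difference was -0.12 ± 0.62 (SE, adjusted p by limma = 1), and -0.12 ± 0.11 with the block (adjusted p = 0.68). Il12rb2 (intensities 0.7 to 24.9) and Hlx (3.4 to 23.1) were below the floor.

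The change between SKG and BALB differed from the change between the transfers for 3 of the 7 tested genes in a limma interaction test over all 12 arrays, where 8.2% of 12176 genes passed, 4.86% with a positive and 3.34% with a negative value. The difference was 4.91 ± 0.30 (SE) for Ifng (adjusted p = 8e-06), 1.56 ± 0.31 for Stat4 (0.011) and -1.76 ± 0.36 for Ifngr2 (0.011). For Ifng this difference holds the effect of the targeted gene. Stat4 was higher in SKG and had a negative value in the transfers, and Ifngr2 the reverse. The other probe set of Ifngr2 gave a value of -1.80 ± 0.58 and did not pass (adjusted p = 0.099 over probe sets). For Tbx21, with negative values in either comparison, the difference was -0.30 ± 0.26 (adjusted p = 0.56), its 95% interval ran from -0.87 to 0.28, and with replicates 1 and 2 only it passed (-0.48, adjusted p = 0.0093). Il12rb1 (1.69 ± 0.71, adjusted p = 0.18), Runx3 (-0.57 ± 0.24, 0.17) and Ifngr1 (-0.17 ± 0.35, 0.82) did not pass. With replicates 1 and 2 only Il12rb1 passed (1.39, adjusted p = 0.00072). In that fit, which also gave the call of Tbx21, 2202 of 12150 genes were positive and 1568 negative. With the replicate block Il12rb1 (adjusted p = 0.0016) and Runx3 (0.044) did, against 25.6% of all genes, 15.3% positive and 10.3% negative.

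Across the 4 groups, with all arrays normalized together and no test, the order of levels differed between the genes. Ifng was highest in the IL-6 KO transfer (13.55 ± 0.02, SD, n = 3) and SKG (13.43 ± 0.22), which overlapped, then BALB (12.66 ± 0.30) and the IFN-γ KO transfer (9.41 ± 0.48), each apart from its neighbour. Tbx21 was highest in BALB (11.88 ± 0.12), apart from SKG (10.82 ± 0.13), which overlapped the IL-6 KO transfer (10.65 ± 0.20), with the IFN-γ KO transfer below (9.89 ± 0.42). The group with the most Tbx21 was therefore not the group with the most Ifng. Runx3 was likewise highest in BALB (9.04 ± 0.18), apart from the other 3 groups, whose values of 8.12 to 8.37 overlapped. Stat4 ran from 11.08 ± 0.20 in the IL-6 KO transfer through SKG (10.76 ± 0.29) and the IFN-γ KO transfer (10.22 ± 0.43) to BALB (10.07 ± 0.26), with every neighbour overlapping. Ifngr2 was higher in BALB (6.54 ± 0.24) and the IFN-γ KO transfer (6.28 ± 0.26) than in SKG (5.54 ± 0.42) and the IL-6 KO transfer (5.52 ± 0.30), and the array values of these pairs of groups did not overlap. The groups with more Ifngr2 on this probe set were those with less Ifng, but in the IFN-γ KO transfer Ifng was the targeted gene. A link between the levels of these genes was not tested. On its other probe set BALB was again highest (6.20 ± 0.41), but every neighbour in the order overlapped. Ifngr1 stayed between 8.18 and 8.38 in all groups, and Il12rb1 was lowest in BALB (6.70 ± 0.39) and at 8.07 to 8.27 elsewhere. Neighbours in the order overlapped for Ifngr1, Il12rb1 and Il12rb2. The SKG and BALB arrays differ from the transfers in age, labelled stimulation and tissue together, which cannot be told apart.

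The genes with profiles most like Ifng were sought among 11432 genes, by the root mean square difference over the 12 arrays of log2 levels centred on each gene's mean. They were Plac8 (1.12), Iigp1 (1.14), an IFN-γ-induced GTPase of cell-autonomous defence, Gm4951 (1.14), C130026I21Rik (1.20) and Il5 (1.25), a Th2 cytokine, where the median of all genes was 1.77. None was close, as the low level in the IFN-γ KO transfer is the main part of the Ifng profile: Il5 was 6.52 there, 9.64 in the IL-6 KO transfer, 9.70 in SKG and 7.19 in BALB. Tbx21 ranked 68 and Stat4 ranked 171 in likeness to Ifng (1.43 and 1.49). A high rank here need not mean that a gene followed Ifng in the other groups. Between SKG and BALB, Tbx21 moved opposite to Ifng (log2 fold changes of -1.06 and 0.74). Profiles most like Tbx21 were closer, Il21r (0.23), Slc30a1 (0.24) and Rbm4b (0.26), against a median of 0.85. In likeness to Tbx21, Ifng ranked 10984 (1.43) and Stat4 ranked 8218 among the same 11432 genes, while Runx3 ranked 248 (0.46). Il21r, the receptor of IL-21, was 9.04 in BALB, 8.11 in SKG, 7.49 in the IFN-γ KO transfer and 7.74 in the IL-6 KO transfer.

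Other genes of the pathway were read from 6 lists. Effector and surface genes of Th1 cells were mostly higher in SKG: of 13 tested 9 rose and 2 fell, where 15.7% of all genes rose and 11.8% fell, with a median log2 fold change of 2.46 against 0.06 over all genes. The chemokine receptor Cxcr6 rose by 3.67 ± 0.23 (SE), the granule protease Gzmb by 3.18 ± 0.22, the chemokine receptor Cxcr3 by 2.46 ± 0.22 and perforin (Prf1) by 1.71 ± 0.25 (adjusted p by limma from 5.1e-05 to 0.0017). From the median of its probe sets Prf1 had a value of 0.65 (adjusted p = 0.048). The 2 that fell were Fasl, the death ligand, and Selplg, the selectin ligand, chosen for mention after their values were seen (-0.73 and -0.90). Of the IL-12 and IL-18 pathway 4 of 11 tested genes rose and 0 fell, with 1 lower with the replicate block and a median of 0.08. The receptor chains of IL-18, a cytokine that acts with IL-12 to raise Ifng, were among them, Il18r1 with 2.98 ± 0.38 and Il18rap with 1.45 ± 0.18, as were the kinases Tyk2 (0.84 ± 0.16) and Jak2 (0.34 ± 0.08; limma adjusted p between 0.00077 and 0.014). Jak2 lost its call under 6 alternatives, among them all arrays in one fit (adjusted p = 0.25) and the use of its median probe set value (0.15, 0.26).

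Of 17 tested genes of the response to IFN-γ 8 fell and 0 rose in SKG, where 11.8% of all genes fell, and 9 did not pass. The median was -0.68, and among those that did not pass some had positive values, such as Iigp1 with 0.41 ± 0.37, mentioned after its value was seen. Cxcl10, a chemokine, fell by 2.60 ± 0.26 (SE), the factor Irf1 fell by 1.13 ± 0.10, the peptide transporter gene Tap1 fell by 0.81 ± 0.12 and the factor Irf8 fell by 0.71 ± 0.11 (adjusted p by limma from 0.00016 to 0.0022). Irf8 lost its call without normalization (adjusted p = 0.086). Of 8 tested genes of IFN-γ receptor signalling and its inhibitors 3 passed, where 27.5% of all genes did: 1 rose, Jak2, and 2 fell, the inhibitors Socs1 (-0.98 ± 0.28) and Ptpn6 (-0.78 ± 0.18; limma adjusted p = 0.032 and 0.012), while Ptpn2, a phosphatase, had a value of 0.25 ± 0.09 and did not pass (0.074). With replicates 1 and 2 only, 3 genes of this list rose, among them Ptpn2 (0.20, adjusted p = 0.046), where 2866 of 12022 genes rose. The call of Socs1 was lost without SKG replicate 1 or 2 (adjusted p = 0.10 and 0.092), without normalization (0.10) and with no filter (0.062), its value was -0.64 without BALB replicate 3, and the call of Ptpn6 was lost without BALB replicate 1 or 2 (0.060 and 0.055) and with all arrays in one fit (0.32).

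Of 11 tested transcription factors listed as partners in Th1 cells 5 rose and 1 fell, where 15.7% of all genes rose and 11.8% fell. Their median was 0.76, and the list does not separate factors that raise Ifng from those that restrain it. Prdm1 (Blimp-1) rose by 1.75 ± 0.33 (SE), Hopx, which supports persistence of Th1 cells, by 1.63 ± 0.23 and the AP-1 factor Batf by 0.76 ± 0.18 (limma adjusted p between 0.0016 and 0.013), while Irf1 was the gene that fell. Batf lost its call without SKG replicate 1 or 2 (adjusted p = 0.052 and 0.058) and with all arrays in one fit (0.13). Of 10 factors of other helper fates or repressors of Ifng 3 rose, Maf by 2.92 ± 0.41, Foxp3, the factor of regulatory T cells, by 1.74 ± 0.21 and Ahr by 1.64 ± 0.19, and Sox4 fell by 3.40 ± 0.16 (adjusted p by limma from 1.5e-05 to 0.0014). Taking the median over probe sets gave smaller values, -1.13 for Sox4, 1.94 for Maf and 1.0 for Ahr, all still past the threshold (adjusted p = 0.007, 0.0043 and 0.0052). With the replicate block 2 of the 10 fell, where 1771 of 12075 genes did. The median of the list was -0.18, and its counts without the block stand beside the same shares of 15.7% and 11.8%.

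**Figure D3:**
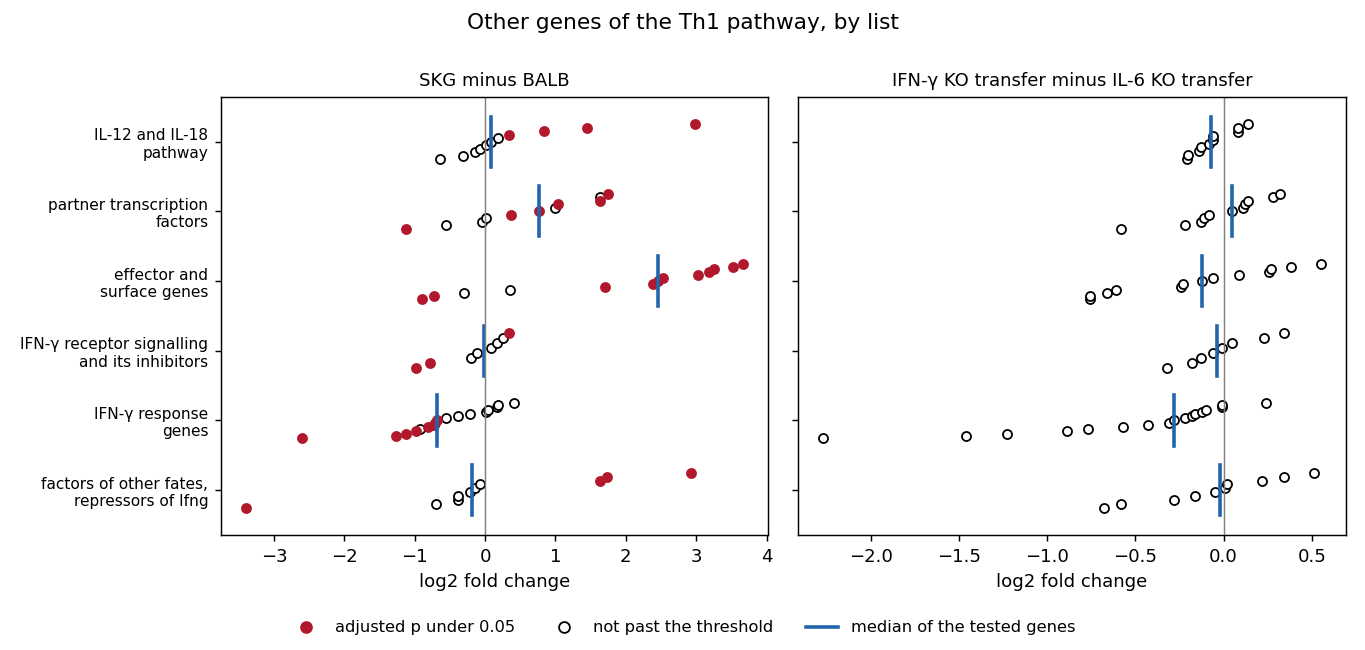
Log2 fold change (x axis) of each tested gene of the 6 lists (y axis) for SKG minus BALB (left) and for the IFN-γ KO transfer minus the IL-6 KO transfer (right), each on its own scale. Red points have a limma adjusted p under 0.05, open points do not, and blue bars are list medians. On the left the median of effector genes is 2.46 and that of response genes -0.68; on the right no gene is red.

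In the transfers 0 genes of the 6 lists passed by limma, where only 0.114% of 12262 genes passed. The medians ran from -0.28 for the 17 response genes to 0.05 for the 11 partner factors. With the replicate block 4 response genes were lower, where 1.01% of all genes were lower. Of the 4 with the smallest p, Iigp1 had -2.27 ± 0.72 (SE), Gbp2, a guanylate-binding protein, -1.46 ± 0.35, the chemokine gene Cxcl9 -1.23 ± 0.19 and the GTPase gene Irgm1 -0.89 ± 0.25 (limma adjusted p = 0.87, 0.52, 0.17 and 0.74, and with the block 0.011, 0.003, 0.047 and 0.093). With replicates 1 and 2 only Iigp1 (-1.58, adjusted p = 8.8e-06), Gbp2 (-1.17, 0.00036) and Irgm1 (-0.48, 0.024) passed at smaller values, and Cxcl9 did not (-1.22, 0.062). Iigp1 was -1.34 without IFN-γ KO replicate 3, and Cxcl9 was -0.58 with the median of probe sets and -0.46 with log2(intensity + 64). Cxcl9 was below the floor of 4.72 in the IFN-γ KO transfer (4.21 ± 0.07, SD, n = 3, against 5.44 ± 0.19). It was tested only through its level in the IL-6 KO transfer, and it is among the 4 response genes lower with the block. Among effector genes Fasl had -0.76 ± 0.14 and Cxcr3 0.55 ± 0.21 (limma adjusted p = 0.29 and 1), and with the block they passed as lower and higher (0.012 and 0.021), as they did with replicates 1 and 2 only (0.00028 and 0.011). The median over probe sets gave -0.45 for Fasl. Havcr2, the inhibitory receptor TIM-3, had -0.66 ± 0.31 and Gzmb 0.27 ± 0.08, and neither passed with the block (adjusted p = 0.27 and 0.056). With replicates 1 and 2 only both passed, Havcr2 at a larger value (-1.08, adjusted p = 0.00017) and Gzmb at 0.23 (0.031). In that fit 5 effector genes were lower and 2 higher, where 239 of 12291 genes were lower and 262 higher. Havcr2 was also larger with array weights (-1.04, 0.012) and without IL-6 KO replicate 3 (-1.01), and smaller without IL-6 KO replicate 1 (-0.43).

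In the other lists, Gata3, the Th2 master regulator, had -0.68 ± 0.32 (SE, limma adjusted p = 1, and 0.0096 with the block), Rora 0.51 ± 0.34, Maf 0.34 ± 0.18 and Foxp3 0.22 ± 0.17. With replicates 1 and 2 only Gata3 (-0.60, adjusted p = 0.0048) and Maf (0.48, 0.0053) passed. Gata3 was -0.37 without IFN-γ KO replicate 3, and Maf was 0.04 with the median of probe sets. Of the partner factors Bhlhe40, which promotes Ifng expression, had -0.58 ± 0.16 (limma adjusted p = 0.70, and 0.064 with the block), Ets1 0.28 ± 0.13, Irf1 -0.22 ± 0.22 and Prdm1 0.14 ± 0.18, of which Bhlhe40 (-0.67, adjusted p = 0.012) and Ets1 (0.31, 0.016) passed with replicates 1 and 2 only. In the IL-12 and IL-18 pathway the 4 genes with the smallest p were Stat3 (-0.21), Il18rap (-0.20), Ebi3 (-0.13) and Il27ra (-0.08), and in receptor signalling they were Jak1 (0.23), Ptpn6 (-0.32), Ptpn11 (-0.13) and Socs1 (-0.18), all with limma adjusted p = 1. CD8 markers summed to 55 to 60 in the IFN-γ KO transfer and 41 to 55 in the IL-6 KO transfer, and natural killer markers to 57 to 108 and 94 to 107. Of other cell types, neutrophil markers summed to 61 to 222 and 24 to 1244, and mast cell markers to 216 to 420 and 82 to 114. Of the 4 mast cell markers only Kit was tested, and it made up most of their sum (8.23 ± 0.43, SD, n = 3, against 6.69 ± 0.19). In these lists 0 genes passed by limma. With the block Kit was higher, as was 1 of 3 tested plasma cell markers, where 95 of 12262 genes were higher.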

How the data were processed

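The authors deposited linear intensities of 45101 probe sets on each array; per the labels' protocols the RNA was labelled with biotin by in vitro transcription. Software and scaling were not given in the sources used here. Array medians ran from 15.7 to 27.7, a ratio of 1.76. The 64 control probe sets were left out, and log2(intensity + 16) was quantile normalized within each comparison, so a fold change on this scale understates that of dim genes. The number of arrays limits the precision. The annotation gave 1 gene for 34945 probe sets and several for 932. It did not list 9160. Symbols were updated by gene ID to GRCm38.p6 for 34741. Of a gene's probe sets, the brightest over 12 arrays was used. A few listed genes without such a probe set are not analysed here.

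Models used limma 3.58.1 under R 4.3.3, separately for the 6 arrays of a comparison, by lmFit and then eBayes with trend, two-sided, Benjamini-Hochberg adjusted over all genes tested, threshold 0.05. The fits were tested on simulated data. The members, lists and tests were chosen with earlier results of these data known. The text names all 9 members, the 4 genes of each list with the smallest p in each comparison, and the 5 and 3 genes nearest in profile to Ifng and Tbx21. Other genes mentioned are noted as such or are cell type markers from fixed lists.

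Replicate numbers come from the labels. Deviations from group means of same-numbered arrays had correlations of 0.13, 0.20 and 0.33 (SKG with BALB) and 0.46, 0.45 and 0.70 (transfers), all above the 0.1 taken for pairing, so a fit with the replicate block is given where it changes a call. Replicates 1 and 2 correlated across numbers as well (0.17 and 0.17, and 0.44 and 0.41), so the block acts mainly on replicate 3. Alternatives were other constants (1 and 64), filters, normalizations and probe set rules, no trend, all arrays in one fit, the block, array weights, leaving out each array and, chosen after seeing the data, replicates 1 and 2 only.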

Additional observations from a re-analysis of the deposited data

Results flagged for a closer look

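For 3 of the 7 genes tested, the change between SKG and BALB differed from that between the transfers in the limma interaction test. Over all genes 8.2% of 12176 passed this test. The values were 4.91 for Ifng, which holds the effect of the targeted gene, 1.56 for Stat4 and -1.76 for Ifngr2. These passed without each of the 12 arrays in turn (adjusted p at most 9.7e-05, 0.033 and 0.033). Groups of 3 arrays are too small for a check for single outlying arrays.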

How the results depend on the processing

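Of the genes called between SKG and BALB, 3 higher and 3 lower, the count of higher genes was 1 without normalization, and ran from 2 to 3 without each array in turn. In the transfers 1 gene was lower, and 2 with the replicate block, 2 with array weights and 3 with replicates 1 and 2 only, while 0 were higher under every alternative run. In the interaction test 1 gene was negative, and 2 with the replicate block, 3 with array weights and 2 with replicates 1 and 2 only. Of list counts between SKG and BALB, lower IL-12 and IL-18 genes went from 0 to 1 and lower factors of other fates from 1 to 2, with the block and with replicates 1 and 2 only, and the latter moved higher receptor signalling genes from 1 to 3. In the transfers, from 0, the block gave 1 higher and 1 lower effector gene, 4 lower response genes and 1 lower factor of other fates. Replicates 1 and 2 only gave 2 higher and 5 lower effector genes, 4 lower response genes, 1 higher and 1 lower partner factor, and 1 higher and 1 lower factor of other fates. The replicate block changed no other call of a member within a comparison. The cause was not tested.

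Signs turned only for values that had not passed. Without each array in turn Ifngr1 ran from -0.21 to 0.25 in SKG (-0.01 without normalization) and from -0.41 to 0.05 in the interaction. In the transfers Il12rb1 ran from -0.69 to 0.46, Il18rap from -0.61 to 0.08, Irf1 from -0.38 to 0.03, Socs1 from -0.42 to 0.04, Ptpn6 from -0.93 to 0.29 and Jak1 from -0.04 to 0.39. The median of the probe sets turned Jak1 (0) and Ptpn11 (0.02).

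Over all genes, 1901 were higher and 1423 lower in SKG, 1130 and 830 without normalization, 2917 and 2209 with array weights, 2866 and 2205 with replicates 1 and 2 only, 1114 and 885 without SKG replicate 1, 1157 and 905 without SKG replicate 2, and 1257 and 875 without BALB replicate 1. In the transfers 8 were higher and 6 lower, 95 and 124 with the replicate block, 96 and 91 with array weights, 22 and 9 with all 12 arrays in one fit, and 262 and 239 with replicates 1 and 2 only. Without each transfer array in turn they ran from 1 to 16 and from 1 to 10. In the interaction test 592 were positive and 407 negative, 282 and 156 without normalization, 1861 and 1258 with the block. With array weights they were 2135 and 1549 of 12176 genes, and with replicates 1 and 2 only 2202 and 1568 of 12150. Signal over background limits Il12rb2, Hlx and the dimmer Runx3 probe set, which lie below the floor.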
